A study of Arabidopsis thaliana with 18 samples.

Results

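The combined loss of DCL2, DCL3 and DCL4, which encode Dicer-like proteins, was measured in Arabidopsis thaliana plants that all carried an RTL2 construct. Of the 18 mRNA libraries of the series, 6 were taken by their titles: 3 dcl234 35S-RTL2 libraries, from plants mutated in DCL2, DCL3 and DCL4 that carry 35S-RTL2, against 3 35S-RTL2 libraries, from plants with the construct and wild-type DCL genes. In both groups RTL2 is driven by 35S, a viral promoter that is active in most plant cells. The labels do not give the number of independent transgenic lines, so each group may stand for 1 line. A further 6 libraries, 3 of dcl234 plants and 3 of wild-type Col-0 plants, hold the same contrast of DCL genes without the construct and are set beside it. All plants were of the Col-0 accession, grown in vitro at 22 °C under days of 18 h light and nights of 6 h, and taken whole as seedlings 11 days after germination. Nothing in the labels says that replicates came from separate cultures, so p-values cover only how much these samples vary, and that variation may be technical.

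Dicer-like proteins are RNase III enzymes that cut double-stranded RNA into small RNAs. DCL3 makes the small interfering RNAs (siRNAs) that guide DNA methylation, DCL4 makes trans-acting siRNAs from TAS transcripts together with the RNA-dependent RNA polymerase RDR6, and DCL2 can act in place of DCL4. RTL2 is an RNase III-like protein that cuts double-stranded RNA without being a Dicer. TAS1 and TAS2 transcripts are first cut by miR173 and TAS3 transcripts are bound by miR390, and the trans-acting siRNAs of TAS3 then direct the cutting of mRNAs of auxin response factors.

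The sequences below are of miRNAs and of TAS transcripts, and no TAS level or call depends on them. They were taken from RefSeq assembly TAIR10.1 and are written 5′ to 3′ in DNA letters. The mature miRNAs have their seed, bases 2 to 8, in capitals.
miR173-5p: tTCGCTTGcagagagaaatcac
miR390a-5p: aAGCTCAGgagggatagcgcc
The stretch of each precursor that pairs best with miR173 or miR390a follows, with bases left unpaired in capitals and G:U counted as unpaired.
TAS1A: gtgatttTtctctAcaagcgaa
TAS1B: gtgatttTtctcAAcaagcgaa
TAS1C: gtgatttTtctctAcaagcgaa
TAS2: gtgatttTtctctCcaagcgaa
TAS3A: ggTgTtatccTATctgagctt
TAS3B: gAcgctatcTTAcctgagctt
TAS3C: gTTTctatTcctcctgagctt
The 4 miR173 stretches had 2 or 3 unpaired bases of 22, and the next best stretch of the same transcript had 8 to 10. The miR390a stretches had 4 or 5 unpaired bases of 21. TAS3A and TAS3C each held another stretch with 5 unpaired bases, and the next best stretch of TAS3B had 7.

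Stretches of 21 bases of target mRNAs that pair with the antisense strand of a TAS transcript are shown next because their genes are described together with the precursors. Paired bases are in capitals.
ARF2 with TAS3A: aGGGTCTTgCAAGGTCAAGAA
ARF3 with TAS3A: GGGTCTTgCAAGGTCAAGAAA
ARF4 with TAS3A: GGTCTTgCAAGGTCAAGAAAA
HTT1 with TAS1A: acACGaTATGTTGGACTTAGA
HTT2 with TAS1A: tcACGCTATGTTGGACTTAGG
The ARF stretches paired at 19 bases in ARF2 and at 20 bases in ARF3 and in ARF4. The HTT1 stretch paired at 18 bases and the HTT2 stretch at 19. A match of letters is a description and does not show that an siRNA of this sequence was made.

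Total counts of the 6 libraries ran from 20775728 to 28414982. Within a group, replicates correlated at r = 0.984 to 0.990 across genes on the scale of log2 CPM, counts relative to library size, and no pair agreed within sampling noise. The label says seedlings, and photosynthesis genes summed to 29021 to 38719.6 CPM in dcl234 35S-RTL2 libraries and 25429 to 31359 CPM in 35S-RTL2 libraries. Floral and pollen genes were expressed in all of them as well, so that the organ identity genes AG and AP1 and the pollen pectin methylesterase VGD1 stood at 44.6 ± 5.91, 109.7 ± 7.90 and 419 ± 115 CPM in dcl234 35S-RTL2 plants and at 46.7 ± 2.12, 93.9 ± 28.6 and 1068 ± 248 CPM in 35S-RTL2 plants (SD, n = 3 each). The seed storage genes summed to at most 0.337 CPM. The 6 root marker rows that hold no other gene summed to 84.3 to 87.1 CPM in dcl234 35S-RTL2 libraries. In 35S-RTL2 libraries these rows summed to 74.3 to 79.9 CPM, without overlap. Of 7 root rows tested, 0 were called, beside 20.9% of all rows. Mitochondrial rows took 0.00265% to 0.00322% of counts in dcl234 35S-RTL2 libraries and 0.00322% to 0.00743% in 35S-RTL2 libraries. In bulk RNA, fewer cells of a type and less RNA per cell cannot be told apart.

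The construct and the mutated genes were measured first, as a check of the labels. RTL2 stood at 1761, 2053 and 1674 CPM in dcl234 35S-RTL2 libraries and at 539, 618 and 515 CPM in 35S-RTL2 libraries. Every mutant library was above every library with wild-type DCL genes, and the log2 difference was 1.71 (SE 0.15), with an adjusted p of 2.14e-05 by Benjamini-Hochberg over all rows, from the quasi-likelihood test of edgeR that gave every adjusted p-value here. The groups therefore differ in the level of RTL2 as well as in DCL genotype, and the part of each in any difference below cannot be told apart. RTL2 stood at 3.24 ± 0.554 CPM in dcl234 and 2.93 ± 0.0435 CPM in Col-0 plants without the construct (SD, n = 3 each).

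The row that counts DCL3 together with its neighbour AT3G43930 held 1.42, 1.79 and 2.27 CPM in dcl234 35S-RTL2 libraries and 19.6, 17.61 and 18.8 CPM in 35S-RTL2 libraries, a log2 difference of -3.35 (SE 0.19, edgeR adjusted p = 2.67e-07). The row of DCL2 with AT3G03305 held 42.0, 41.0 and 41.3 CPM in dcl234 35S-RTL2 libraries and 67.2, 65.3 and 60.7 CPM in 35S-RTL2 libraries, a log2 difference of -0.64 (SE 0.08, edgeR adjusted p = 0.000217). Both rows were lower in every mutant library. DCL4 stood at 33.5, 30.6 and 33.6 CPM in dcl234 35S-RTL2 libraries and 38.0, 33.6 and 27.2 CPM in 35S-RTL2 libraries, which overlap, and a mutation need not alter the level of a transcript. DCL1, in a row with PPa1 and MIR838, had a log2 difference of 0.04 (SE 0.07) that did not pass the test. Among the other RNase III-like genes, RTL3 rose by 0.98 (SE 0.20, edgeR adjusted p = 0.00517), at 3.14, 3.92 and 4.34 CPM in dcl234 35S-RTL2 libraries against 1.35, 2.07 and 2.32 CPM in 35S-RTL2 libraries, and RTL1 was below 1 CPM in each library, at 0.182, 0.0834 and 0.637 CPM in dcl234 35S-RTL2 and 0.144, 0.464 and 0.366 CPM in 35S-RTL2.

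In dcl234 35S-RTL2 plants, TAS transcripts and their target mRNAs, several loci without a symbol in RefSeq, the flowering repressor FLC and genes of aliphatic glucosinolate synthesis were higher than in 35S-RTL2 plants. Lower were the DNA demethylase gene ROS1, the florigen gene FT, anthocyanin genes, sulfur starvation genes and many genes of pollen, endosperm and seed coat. Of 21343 rows tested, 4461 (20.9%) had an adjusted p below 0.05 in edgeR's quasi-likelihood test, 1944 of them higher (9.11%) and 2517 lower (11.8%). The higher calls were mostly small, with a median log2 difference of 0.46 and 177 above 1. The lower calls had a median of -0.95, and 1192 lay below -1. The count of calls rests on few libraries: it was 1952 without 35S-RTL2 replicate 1, 1955 without 35S-RTL2 replicate 2, 2283 without dcl234 35S-RTL2 replicate 3 and 2452 without dcl234 35S-RTL2 replicate 2.

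The 10 higher calls with the largest difference, among those averaging at least 1 CPM and without overlap, included loci that were nearly silent in 35S-RTL2 plants. AT3G29110, which has no symbol in RefSeq, stood at 2.77, 4.63 and 5.14 CPM in dcl234 35S-RTL2 libraries and 0.0481, 0 and 0.0406 CPM in 35S-RTL2 libraries. These are 316 counts against 2, a ratio per total count of 153 with an exact 95% interval from 42.1 to 1272 that covers counting error only. AT3G29633 stood at 6.27, 9.13 and 8.80 CPM in dcl234 35S-RTL2 libraries and 0.192, 0 and 0.163 CPM in 35S-RTL2 libraries.

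AT3G33528 stood at 3.94, 5.13 and 4.98 CPM in dcl234 35S-RTL2 libraries and 0.144, 0.0715 and 0.284 CPM in 35S-RTL2 libraries, a log2 difference of 4.79 (SE 0.42, edgeR adjusted p = 2.34e-05). The non-coding RNA AT4G04223 stood at 14.4, 12.5 and 11.4 CPM in dcl234 35S-RTL2 libraries and 0.722, 1.07 and 0.650 CPM in 35S-RTL2 libraries, a log2 difference of 3.94 (SE 0.26, edgeR adjusted p = 5.79e-07). Each of these loci was higher in all 3 mutant libraries than in any 35S-RTL2 library, and the same held for each without the construct, where AT3G29110 averaged 1.38 ± 0.538 CPM in dcl234 and 0.0279 ± 0.0483 CPM in Col-0, and AT4G04223 averaged 12.0 ± 1.01 CPM in dcl234 and 2.11 ± 0.0812 CPM in Col-0 (SD, n = 3 each). The other 6 of the 10 were GSTF11, CYP79F1, AK3, FMO GS-OX3, MYB29 and the row of BCAT4 with IKU2, with log2 differences of 3.50 to 4.02, and all but AK3 belong to the glucosinolate list described below.

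TAS precursors were higher in dcl234 35S-RTL2 plants in 6 of the 7 rows tested, with a median log2 difference of 0.83 against 0.01 over all rows, where 9.11% were called higher. TAS4 was removed by the filter on low counts, and TAS3C, at -0.05 (SE 0.42), did not pass. Among the precursors with a miR173 stretch, TAS2 stood at 34.9, 43.5 and 47.1 CPM in dcl234 35S-RTL2 libraries and 12.3, 16.8 and 16.7 CPM in 35S-RTL2 libraries, a log2 difference of 1.45 (SE 0.17, edgeR adjusted p = 0.000146). TAS1A stood at 5.83, 9.34 and 8.56 CPM in dcl234 35S-RTL2 libraries and 1.73, 2.93 and 3.70 CPM in 35S-RTL2 libraries, a log2 difference of 1.49 (SE 0.30, edgeR adjusted p = 0.00435). In both, every mutant library was above every library with wild-type DCL genes. TAS1B had a log2 difference of 0.75 (SE 0.20). TAS1C, counted together with AT2G39670 in the most abundant of the precursor rows, had 0.83 (SE 0.15).

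The TAS3 precursors, which carry miR390a stretches, were less uniform. TAS3A stood at 13.1, 19.3 and 21 CPM in dcl234 35S-RTL2 libraries and 7.98, 11.4 and 11.9 CPM in 35S-RTL2 libraries, a log2 difference of 0.77 (SE 0.19, edgeR adjusted p = 0.0117). TAS3B was scarce, at 2.30, 3.54 and 3.58 CPM in dcl234 35S-RTL2 libraries and 0.385, 0.393 and 1.91 CPM in 35S-RTL2 libraries, and its difference of 1.80 (SE 0.57) had an edgeR adjusted p of 0.0378. The groups did not overlap in either. Without 35S-RTL2 replicate 1, or without dcl234 35S-RTL2 replicate 3, 3 of the 7 precursors were called, and 4 were called without replicate 2 of either group. TAS1A, TAS2 and the TAS1C row were called in all 12 alternatives run for each gene. Between dcl234 and Col-0 plants without the construct, where 4.56% of rows were called and 0.754% were called higher, 4 precursors rose, with TAS2 at 1.61 and TAS1A at 1.27.

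Targets of trans-acting siRNAs were higher in dcl234 35S-RTL2 plants in 12 of 23 rows tested (52.2%, beside 9.11% of all rows). Their median log2 difference was 0.43, and the other 11 did not pass. ARF3 and ARF4, auxin response factors of leaf polarity and the juvenile to adult transition, rose together. ARF4 stood at 125, 105 and 119 CPM in dcl234 35S-RTL2 libraries and 50.5, 46.4 and 51.2 CPM in 35S-RTL2 libraries, a log2 difference of 1.24 (SE 0.08, edgeR adjusted p = 5.79e-07). ARF3 stood at 108, 104 and 117 CPM in dcl234 35S-RTL2 libraries and 43.4, 35.8 and 45.4 CPM in 35S-RTL2 libraries, a log2 difference of 1.4 (SE 0.19, edgeR adjusted p = 0.000311). The next best stretch with TAS3A paired at 17 bases in ARF2, 19 in ARF3 and 20 in ARF4, and the part of pairing was not tested. ARF2 stood at 308, 285 and 298 CPM in dcl234 35S-RTL2 libraries and 299, 299 and 253 CPM in 35S-RTL2 libraries, which overlap. Its log2 difference was 0.07 (SE 0.09).

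HTT1, HTT2 and the gene that RefSeq lists with the synonym HTT4 are heat-induced targets of TAS1. HTT2 stood at 50.3, 43.0 and 50.7 CPM in dcl234 35S-RTL2 libraries and 22.0, 25.0 and 23.7 CPM in 35S-RTL2 libraries, a log2 difference of 1.02 (SE 0.10, edgeR adjusted p = 8.16e-05). HTT1, at a much lower level, stood at 1.35, 1.63 and 1.99 CPM in dcl234 35S-RTL2 libraries and 0.529, 0.250 and 0.284 CPM in 35S-RTL2 libraries, a log2 difference of 2.24 (SE 0.40, edgeR adjusted p = 0.00198). AT4G29760, with the HTT4 synonym, stood at 1.2, 2.38 and 2.67 CPM in dcl234 35S-RTL2 libraries and 0.192, 0.214 and 0.406 CPM in 35S-RTL2 libraries, a log2 difference of 2.91 (SE 0.35, edgeR adjusted p = 0.000189). None of the 3 overlapped between the groups. The remaining 7 called targets were genes of clustered pentatricopeptide repeat proteins, 1 of them in a row with NOGC1, with log2 differences of 0.43 (AT1G62930) to 0.64 (AT1G63150), and near-identical copies in that family make their separate values uncertain. Called targets numbered 7 without 35S-RTL2 replicate 2 and 8 without replicate 2 or replicate 3 of dcl234 35S-RTL2. Without the construct, 9 of the 23 were higher in dcl234 than in Col-0 (39.1%, beside 0.754% of all rows).

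**Figure D1:**
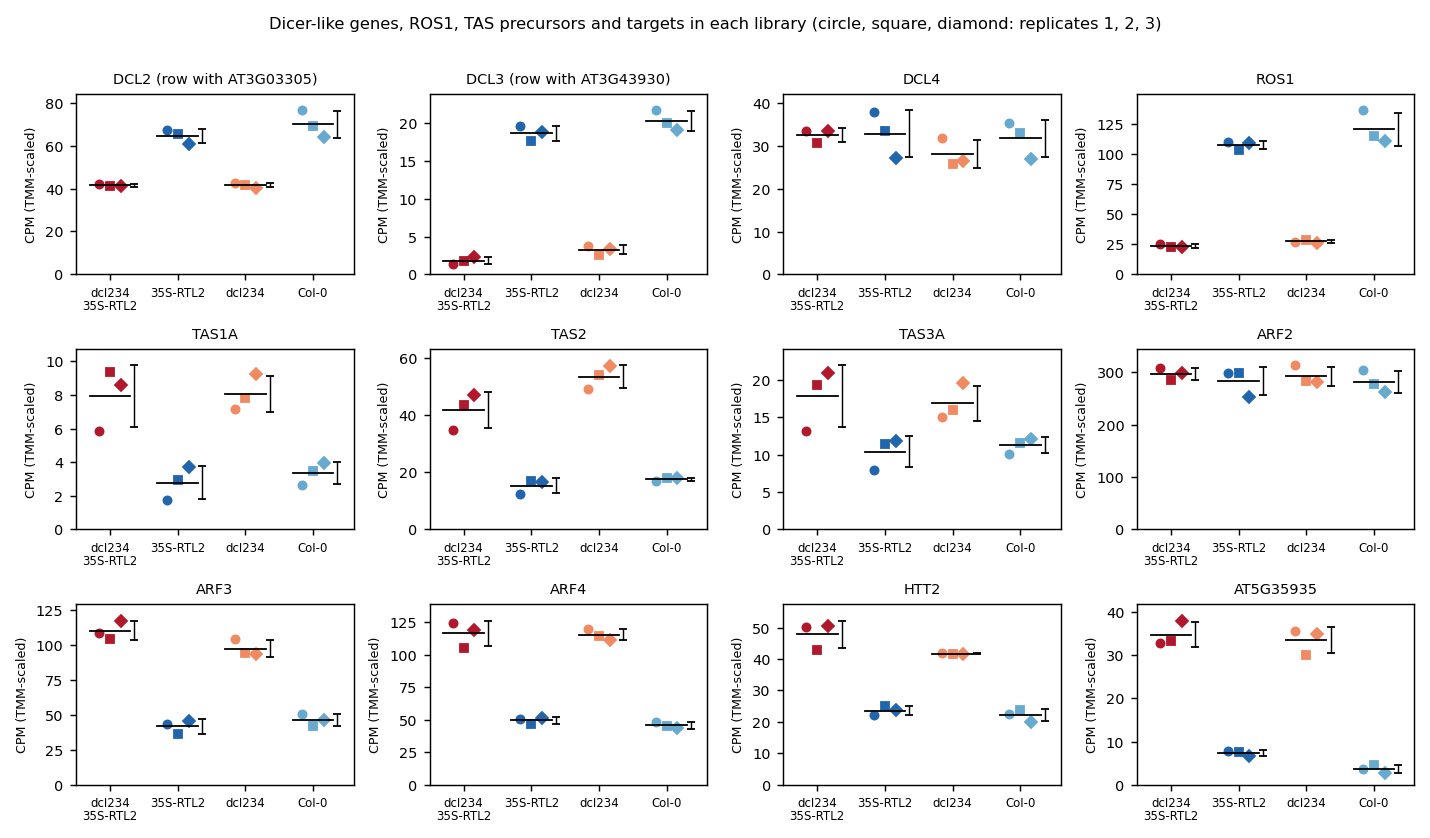
CPM per library (linear axes from 0) of DCL2, DCL3, DCL4, ROS1, TAS1A, TAS2, TAS3A, ARF2, ARF3, ARF4, HTT2 and AT5G35935 in dcl234 35S-RTL2, 35S-RTL2, dcl234 and Col-0 plants, with 1 point per library, a line at the mean and an error bar of 1 SD (n = 3). ARF3, ARF4, HTT2 and TAS2 sit higher, and ROS1 lower, in all libraries of each mutant group than in the matching group with wild-type DCL genes, whereas ARF2 and DCL4 overlap.

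ROS1, the DNA glycosylase that removes methylated cytosine, had the largest difference among the genes of the methylation machinery. It stood at 25.1, 23.0 and 22.3 CPM in dcl234 35S-RTL2 libraries and 109.6, 103 and 109 CPM in 35S-RTL2 libraries, a log2 difference of -2.19 (SE 0.11, edgeR adjusted p = 1.59e-07). All 3 mutant libraries lay far below the lowest 35S-RTL2 library. The values were much the same without the construct, at 27.3 ± 1.26 CPM in dcl234 and 120.4 ± 13.7 CPM in Col-0 plants (SD, n = 3 each). Of the 13 genes for the upkeep of methylation, 5 rose and ROS1 fell, a share called of 46.2% beside 20.9% of all rows. MET1, which copies CG methylation at replication, rose by 0.61 (SE 0.16), the histone methyltransferase SUVH4 by 0.57 (SE 0.15) and the ATPase MORC6 by 0.48 (SE 0.11). DDM1 and VIM1, a chromatin remodeller and a methylcytosine-binding protein, rose by 0.59 and 0.68. The list held 1 higher call without replicate 1 or replicate 2 of 35S-RTL2 or without dcl234 35S-RTL2 replicate 3.

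Among 14 genes of RNA-directed DNA methylation, 4 rose and 1 fell, a share called of 35.7% beside 20.9% of all rows. NRPD1, for the catalytic subunit of polymerase IV, was lower, with a log2 difference of -0.74 (SE 0.23, edgeR adjusted p = 0.0347). RDR2, which copies the transcripts of polymerase IV, rose by 0.57 (SE 0.14), the RNA-binding protein gene IDN2 by 0.65 (SE 0.14), the methyltransferase gene DRM2 by 0.38 (SE 0.10) and CLSY1 by 0.43 (SE 0.14). Higher calls in this list numbered 1 without 35S-RTL2 replicate 2, and 2 without 35S-RTL2 replicate 1 or dcl234 35S-RTL2 replicate 3. NRPD1 passed in 1 of the 6 fits that leave out a library of these groups, the one without 35S-RTL2 replicate 3.

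Genes of siRNA amplification and of RNA decay, held in 1 list, moved little, and 12 of 13 rows lay above 0. Of 13 rows tested, 6 rose (46.2%, beside 9.11% of all rows) and 7 did not pass, with a median log2 difference of 0.28. RDR6 stood at 47.3, 44.6 and 47.2 CPM in dcl234 35S-RTL2 libraries and 34.7, 30.8 and 34.3 CPM in 35S-RTL2 libraries, a log2 difference of 0.48 (SE 0.08, edgeR adjusted p = 0.00190), and the groups did not overlap. SGS3, its partner protein gene, rose by 0.35 (SE 0.08), the small RNA methyltransferase gene HEN1 by 0.37 (SE 0.10) and the exonuclease gene XRN2 by 0.28 (SE 0.06). The row of SDE3 with AT1G05450 and the row of SKI2 with AT3G46950 rose by 0.61 and 0.37. Of 9 Argonaute genes, AGO10 rose by 0.50 (SE 0.17), with an edgeR adjusted p of 0.0483 that passed the threshold in 6 of 12 alternatives.

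Loci known to be repressed by DNA methylation went in both directions, with 1 higher and 3 lower of 10 (40% called, beside 20.9% of all rows). AT5G35935, a pseudogene in RefSeq, stood at 32.9, 33.3 and 38.1 CPM in dcl234 35S-RTL2 libraries and 7.89, 7.54 and 6.66 CPM in 35S-RTL2 libraries, a log2 difference of 2.24 (SE 0.14, edgeR adjusted p = 5.79e-07). The homeobox gene FWA, imprinted and active in the endosperm, stood at 0.146, 0.0834 and 0.478 CPM in dcl234 35S-RTL2 libraries and 1.92, 1.32 and 0.853 CPM in 35S-RTL2 libraries, a log2 difference of -2.50 (SE 0.73, edgeR adjusted p = 0.0273), and it passed in 2 of the 6 fits that leave out a library. The row of MRD1 with MUM4 and HEI10 was lower as well, at -0.79 (SE 0.13, edgeR adjusted p = 0.00106). The Polycomb gene MEA, another imprinted gene of the endosperm, had a log2 difference of -1.91 (SE 0.39, edgeR adjusted p = 0.00495). FWA is itself among the endosperm markers given below, so its fall beside them is no separate observation. The part of endosperm cells in the results for FWA and MEA was not tested.

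SDC, a gene silenced through tandem repeats in its promoter, stood at 0.984, 1.46 and 0.916 CPM in dcl234 35S-RTL2 libraries and 0.673, 0.572 and 0.366 CPM in 35S-RTL2 libraries. The groups did not overlap, yet the log2 difference of 1.06 (SE 0.40) had an edgeR adjusted p of 0.0729. QQS, an orphan gene with variable methylation, had a log2 difference of -0.74 (SE 0.32) that did not pass. AT3G01345 stood at 0.0365, 0.876 and 0.119 CPM in dcl234 35S-RTL2 libraries and 0.0962, 0.143 and 0.0813 CPM in 35S-RTL2 libraries. Replicate 2 of dcl234 35S-RTL2 was the one library clearly above the level of 3 counts, whereas dcl234 plants without the construct held 2.83, 27.0 and 5.52 CPM and Col-0 plants 0.125, 0.0753 and 0.173 CPM. The difference between the contrasts, -4.96 (SE 3.04), did not pass (edgeR adjusted p = 0.891).

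Transcripts of miRNA precursors were mostly too scarce to test: 68 of 175 rows passed the filter, with 4 higher and 7 lower, a share of 16.2% beside 20.9% of all rows. Of the 68, 26 are joined with other genes, and the 42 rows of their own held 2 higher and 2 lower (9.52%). MIR163 stood at 1.53, 1.96 and 1.23 CPM in dcl234 35S-RTL2 libraries and 3.37, 2.72 and 3.13 CPM in 35S-RTL2 libraries, a log2 difference of -0.96 (SE 0.17, edgeR adjusted p = 0.00231). MIR159b stood at 6.82, 7.17 and 9.64 CPM in dcl234 35S-RTL2 libraries and 4.18, 4.54 and 5.08 CPM in 35S-RTL2 libraries, a log2 difference of 0.77 (SE 0.17, edgeR adjusted p = 0.00720). Neither overlapped between the groups. MIR822, in Arabidopsis the precursor of a miRNA cut by DCL4, stood at 1.28, 1.08 and 1.08 CPM in dcl234 35S-RTL2 libraries and 1.59, 3.61 and 4.1 CPM in 35S-RTL2 libraries, a log2 difference of -1.44 (SE 0.35, edgeR adjusted p = 0.0116). Without the construct it was 6.96 ± 0.907 CPM in dcl234 and 3.26 ± 1.25 CPM in Col-0 plants (SD, n = 3 each), and the difference between the contrasts, -2.54 (SE 0.47), did not pass (edgeR adjusted p = 0.274).

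The rows of MIR860 and of MIR863 with MIR850 hold other genes too, so their values cannot be given to the miRNAs. HDA2 with MIR860 and FC1 stood at 32.9, 29.8 and 28.6 CPM in dcl234 35S-RTL2 libraries and 107, 111 and 98.1 CPM in 35S-RTL2 libraries, a log2 difference of -1.79 (SE 0.12, edgeR adjusted p = 5.79e-07). MIR863 with MIR850 and AT4G13495 stood at 8.57, 7.63 and 6.05 CPM in dcl234 35S-RTL2 libraries and 8.99, 11.7 and 16.1 CPM in 35S-RTL2 libraries, a log2 difference of -0.73 (SE 0.23, edgeR adjusted p = 0.0394). Called precursors numbered 1 higher without 35S-RTL2 replicate 1 or dcl234 35S-RTL2 replicate 3, and 2 higher and 4 lower without 35S-RTL2 replicate 2. The mature miRNAs of these rows and of MIR163 and MIR822 have no seed in common, with the seed again in capitals.
miR163: tTGAAGAGgacttggaacttcgat
miR822-5p: tGCGGGAAgcatttgcacatg
miR850: tAAGATCCggactacaacaaag
miR860: tCAATAGAttggactatgtat
miR863-3p: tTGAGAGCaacaagacataat

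Of 63 rows of miRNA targets 4 were higher and 6 lower, a share of 15.9% beside 20.9% of all rows, with a median log2 difference of -0.03. The flowering repressor gene SNZ, a target of miR172, rose by 1.97 (SE 0.44), at 0.437, 0.667 and 0.876 CPM in dcl234 35S-RTL2 libraries and 0.144, 0.107 and 0.244 CPM in 35S-RTL2 libraries. AP2, another miR172 target and a gene of floral organ identity, was lower, with a log2 difference of -0.71 (SE 0.14), so that SNZ and AP2 went in opposite directions. The growth-regulating factors GRF9 and GRF2 and the polarity gene ATHB15 rose by 0.95, 0.45 and 0.52. TCP10 and the row of TCP3 with AT1G53233, targets of miR319, had log2 differences of -0.64 and -0.68. Lower calls numbered 2 without 35S-RTL2 replicate 1 or dcl234 35S-RTL2 replicate 3 and 3 without 35S-RTL2 replicate 2. Without 35S-RTL2 replicate 3 there were 8 higher and 12 lower calls.

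FLC, the MADS-box repressor of flowering, was among the genes with the smallest adjusted p. It stood at 7.55, 8.88 and 7.77 CPM in dcl234 35S-RTL2 libraries and 1.25, 0.929 and 0.691 CPM in 35S-RTL2 libraries, a log2 difference of 3.08 (SE 0.20, edgeR adjusted p = 5.79e-07). FT, the mobile inducer of flowering that FLC represses, stood at 22.3, 11.1 and 16.2 CPM in dcl234 35S-RTL2 libraries and 67.6, 63.1 and 33.0 CPM in 35S-RTL2 libraries, a log2 difference of -1.72 (SE 0.36, edgeR adjusted p = 0.00503). Neither gene overlapped between the groups, with FLC higher and FT lower in all 3 mutant libraries. The FLC relative MAF4 rose by 1.02 (SE 0.22) and the repressor SVP by 0.69 (SE 0.20). Thus 3 of 11 flowering genes rose and FT fell, a share called of 36.4% beside 20.9% of all rows. SVP passed in 2 of the 6 fits that leave out a library, and FLC, FT and MAF4 passed in all 6. Without the construct FLC averaged 3.04 ± 0.575 CPM in dcl234 and 1.09 ± 0.107 CPM in Col-0, a log2 difference of 1.47 (SE 0.20), and FT differed by -1.49 (SE 0.36). The difference between the contrasts for FLC, 1.61 (SE 0.28), did not pass (edgeR adjusted p = 0.199).

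Aliphatic glucosinolates, defence compounds made from methionine, had their synthesis genes higher in dcl234 35S-RTL2 plants in 19 of 29 rows and lower in 2. That is a share called of 72.4% beside 20.9% of all rows, with a median log2 difference of 1.13. The list was drawn up after the largest calls had been seen, so its count describes these libraries. MYB28 and MYB29 are its transcription factors. MYB28 stood at 30.8, 45.8 and 51.3 CPM in dcl234 35S-RTL2 libraries and 13.4, 10.4 and 18.7 CPM in 35S-RTL2 libraries, a log2 difference of 1.59 (SE 0.27, edgeR adjusted p = 0.00149). MYB29 stood at 3.35, 4.04 and 5.18 CPM in dcl234 35S-RTL2 libraries and 0.289, 0.250 and 0.528 CPM in 35S-RTL2 libraries, a log2 difference of 3.54 (SE 0.41, edgeR adjusted p = 0.000164). In neither gene did the groups overlap.

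Of the enzymes, MAM1, which lengthens the methionine side chain, stood at 12.4, 36.9 and 40.6 CPM in dcl234 35S-RTL2 libraries and 2.41, 1.64 and 3.98 CPM in 35S-RTL2 libraries, a log2 difference of 3.49 (SE 0.50, edgeR adjusted p = 0.000525). CYP79F1, which begins the core pathway, stood at 6.89, 22.6 and 22.3 CPM in dcl234 35S-RTL2 libraries and 0.625, 0.786 and 1.95 CPM in 35S-RTL2 libraries, a log2 difference of 3.93 (SE 0.62, edgeR adjusted p = 0.000940). Replicate 1 of dcl234 35S-RTL2 was the lowest of its group for both enzymes and both MYB genes, and the groups stayed apart. CYP83A1 and GSTU20, for later steps of the core, rose by 2.58 and 2.01, whereas AOP3, a side-chain enzyme gene, was lower, with a log2 difference of -1.68. Leaving out 1 library left 17 to 21 of the rows called higher. Of the 9 genes of indole glucosinolates, 2 rose, MYB34 by 1.48 and UGT74B1 by 0.70, a share called of 22.2% beside 20.9% of all rows. Between dcl234 and Col-0 plants 1 aliphatic row was higher and 1 lower (6.90% called, beside 4.56% of all rows). Of the 29 rows, 24 lay above 0 there, with a median log2 difference of 0.67. The sums over 25 rows that hold no other gene were 682 to 759 CPM in dcl234 and 541 to 619 CPM in Col-0. The difference between the contrasts passed in 0 of the 29 rows.

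Genes induced by sulfur starvation, the nutrient that glucosinolates hold, were lower in 5 of 10 rows (50%, beside 11.8% of all rows), with all 10 below 0 and a median log2 difference of -1.29. GGCT2;1, which breaks down glutathione, stood at 12.9, 4.79 and 5.89 CPM in dcl234 35S-RTL2 libraries and 39.7, 66.7 and 26.3 CPM in 35S-RTL2 libraries, a log2 difference of -2.48 (SE 0.53, edgeR adjusted p = 0.00579). BGLU28, a beta-glucosidase gene, stood at 4.34, 1.88 and 1.71 CPM in dcl234 35S-RTL2 libraries and 12.0, 44.3 and 6.58 CPM in 35S-RTL2 libraries, a log2 difference of -2.98 (SE 0.84, edgeR adjusted p = 0.0237). The groups stood apart, and 35S-RTL2 replicate 2 was the highest library for both. The sulfate transporter SULTR1;2, LSU2 and the row of APR3 with APG8A had log2 differences of -1.38, -1.33 and -0.94. Calls in this list numbered 3 without 35S-RTL2 replicate 2 or without replicate 2 or replicate 3 of dcl234 35S-RTL2, and 8 without dcl234 35S-RTL2 replicate 1. Without the construct GGCT2;1 was 15.9 ± 6.63 CPM in dcl234 and 16.1 ± 4.17 CPM in Col-0 (SD, n = 3 each).

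Flavonoid genes were lower in 7 of 16 rows (43.8%, beside 11.8% of all rows), with a median log2 difference of -0.70. LDOX, an enzyme of anthocyanin and proanthocyanidin synthesis, stood at 2.04, 2.17 and 1.99 CPM in dcl234 35S-RTL2 libraries and 23.2, 12.4 and 10.3 CPM in 35S-RTL2 libraries, a log2 difference of -2.88 (SE 0.59, edgeR adjusted p = 0.00489). DFR, the step before it, stood at 0.802, 1.21 and 1.11 CPM in dcl234 35S-RTL2 libraries and 15.2, 9.15 and 4.96 CPM in 35S-RTL2 libraries, a log2 difference of -3.22 (SE 0.75, edgeR adjusted p = 0.00958). The groups did not overlap, and 35S-RTL2 replicate 1 was the highest library. UF3GT and 5MAT, which decorate anthocyanins, had log2 differences of -2.45 and -2.12. Phosphate starvation genes were lower in 3 of 8 rows (37.5%), MGD3 at -1.68, PS2 at -0.83 and SPX1 at -0.58. Of these, 1 was called when replicate 1 or 2 of 35S-RTL2, or replicate 2 or 3 of dcl234 35S-RTL2, was left out.

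**Figure D2:**
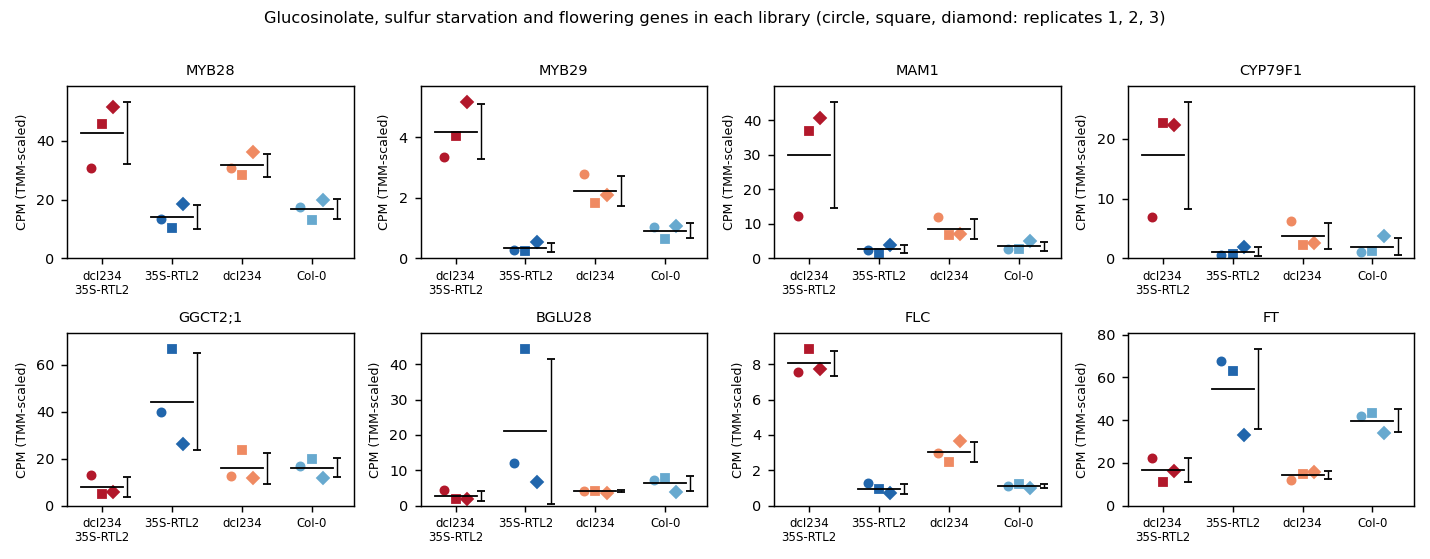
CPM per library (linear axes from 0) of 4 glucosinolate genes, 2 sulfur starvation genes, FLC and FT in dcl234 35S-RTL2, 35S-RTL2, dcl234 and Col-0 plants, with 1 point per library, a line at the mean and an error bar of 1 SD (n = 3). Replicate 1 of dcl234 35S-RTL2 is the lowest of its group for MAM1 and CYP79F1, and the 3 highest libraries for GGCT2;1 are those of 35S-RTL2.

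The lower calls named here are the 10 with the largest difference among those averaging at least 1 CPM and without overlap. AT1G66870, which has no symbol in RefSeq, stood at 0.0365, 0.0417 and 0.119 CPM in dcl234 35S-RTL2 libraries and 4.67, 2.36 and 1.46 CPM in 35S-RTL2 libraries, a log2 difference of -5.33 (SE 0.97, edgeR adjusted p = 0.00233). The glycosyl hydrolase gene GH9B9 stood at 0.182, 0.208 and 0.398 CPM in dcl234 35S-RTL2 libraries and 13.5, 7 and 2.97 CPM in 35S-RTL2 libraries, a log2 difference of -4.87 (SE 1.01, edgeR adjusted p = 0.00509). The expansin gene EXPA23, for a wall-loosening protein, stood at 0.437, 0.334 and 0.358 CPM in dcl234 35S-RTL2 libraries and 18.18, 8.65 and 4.47 CPM in 35S-RTL2 libraries, a log2 difference of -4.76 (SE 0.96, edgeR adjusted p = 0.00428). The others of the 10 were SCRL10, GH9B10, AT3G29570, LCR73, XTH17, AT1G61688 and AT2G30810, from -4.83 for SCRL10 to -4.18 for AT2G30810. Of these, XTH17 passed in 2 of the 6 fits that leave out a library, GH9B10 in 4, LCR73 in 5 and the rest in all 6. Without the construct XTH17 stood at 0.245 ± 0.101 CPM in dcl234 and 0.388 ± 0.122 CPM in Col-0 (SD, n = 3 each). Its difference between the contrasts did not pass (edgeR adjusted p = 0.891). By symbol, 27 of 67 LCR and SCRL genes for cysteine-rich proteins, 15 of 26 RALF-like peptide genes, 10 of 25 XTH genes and 8 of 21 expansin genes were called lower, against 11.8% of all rows. In these families 2 XTH genes and 1 expansin gene were called higher. The LCR and SCRL genes summed to 460 to 683 CPM in dcl234 35S-RTL2 and 487 to 584 CPM in 35S-RTL2 libraries. The expansin genes summed to 1049 to 1160 CPM and 1053 to 1330 CPM in the same order, and both sums overlapped.

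The 35S-RTL2 libraries differed among themselves in these genes. Replicate 1 was the highest of the 3 in 10 of the 10 calls named. It was also the highest in 245 of the 355 lower calls below -2 (69.0%), against 31.2% of all rows. Replicate 3 was the lowest in 259 of the 355 (73.0%), against 38.0% of all rows. Without 35S-RTL2 replicate 1, 9 of the LCR and SCRL genes, 5 XTH genes and 5 expansin genes were called lower. Without replicate 2 of either group, or without dcl234 35S-RTL2 replicate 3, 4 XTH genes were called lower. Within the deposited tables numbered 1, which hold 2 dcl234 35S-RTL2 libraries and 35S-RTL2 replicate 1, the median log2 difference was 0.48 over the higher calls and -0.89 over the lower calls. Within those numbered 3, with 1 library of each group, it was 0.56 and -0.80. The calls were chosen on these same libraries, so these medians are a description and no check. The tables numbered 2 hold no dcl234 35S-RTL2 library, and what the number stands for is not in the labels.

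Markers of pollen, endosperm and seed coat moved with the lower calls. These lists were drawn up after the calls had been seen. All 14 pollen rows were lower, against 11.8% of all rows, with a median log2 difference of -1.45. Their summed level was 541 to 904 CPM in dcl234 35S-RTL2 libraries and 1575 to 2463 CPM in 35S-RTL2 libraries. VGD1 stood at 479, 286 and 491 CPM in dcl234 35S-RTL2 libraries and 1336, 1020.4 and 847 CPM in 35S-RTL2 libraries, a log2 difference of -1.35 (SE 0.23, edgeR adjusted p = 0.00153). AGP6, an arabinogalactan protein gene of pollen, had a log2 difference of -1.57 (SE 0.25). The groups did not overlap in the sum or in VGD1, and the pollen sums stood apart without the construct as well, at 787 to 1071 CPM in dcl234 and 1443 to 1862 CPM in Col-0.

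Of 9 endosperm rows tested, FWA among them, 6 were lower (66.7%, beside 11.8% of all rows). The sums over 10 rows that hold no other gene were 1.49 to 2.87 CPM in dcl234 35S-RTL2 libraries and 6.79 to 12.8 CPM in 35S-RTL2 libraries. The imprinted genes PHE1 and HDG3 had log2 differences of -3.58 (SE 0.77) and -4.12 (SE 0.88). Of 7 seed coat rows 4 were lower (57.1%, beside 11.8% of all rows). Their sums over 6 rows were 4.01 to 8.84 CPM in dcl234 35S-RTL2 libraries and 14.2 to 41.0 CPM in 35S-RTL2 libraries. BAN, the anthocyanidin reductase of the seed coat, stood at 1.57, 2.96 and 2.71 CPM in dcl234 35S-RTL2 libraries and 25.5, 13.8 and 6.91 CPM in 35S-RTL2 libraries, a log2 difference of -2.67 (SE 0.72, edgeR adjusted p = 0.0198). The groups did not overlap in any of these sums, and the 35S-RTL2 values were lowest in replicate 3 for BAN. Without 35S-RTL2 replicate 1, 3 endosperm rows and 1 seed coat row were called, and 2 seed coat rows were called without replicate 1 or replicate 2 of dcl234 35S-RTL2. The flavonoid list shares LDOX and DFR with the pigment pathway of the seed coat, and the part of seed tissue, endosperm or pollen in any of the lower calls was not tested.

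Of the other markers, the tapetum sums overlapped, at 25.8 to 51.2 CPM in dcl234 35S-RTL2 libraries and 39.6 to 54.4 CPM in 35S-RTL2 libraries. The pollen tube attractant genes of the synergid cells summed to 1.24 to 2.47 CPM in dcl234 35S-RTL2 libraries and 0.385 to 0.853 CPM in 35S-RTL2 libraries. Of the 5 genes, 3 were called higher (60%, beside 9.11% of all rows). These calls were lost without 35S-RTL2 replicate 1 and without replicate 2 or replicate 3 of dcl234 35S-RTL2, and 1 was made without 35S-RTL2 replicate 2. The 6 floral organ genes summed to 515 to 553 CPM in dcl234 35S-RTL2 libraries and 569 to 676 CPM in 35S-RTL2 libraries, without overlap. Of these genes SEP3 was called lower, at -0.35 (SE 0.12), and the call was lost in all 6 fits that leave out a library.

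**Figure D3:**
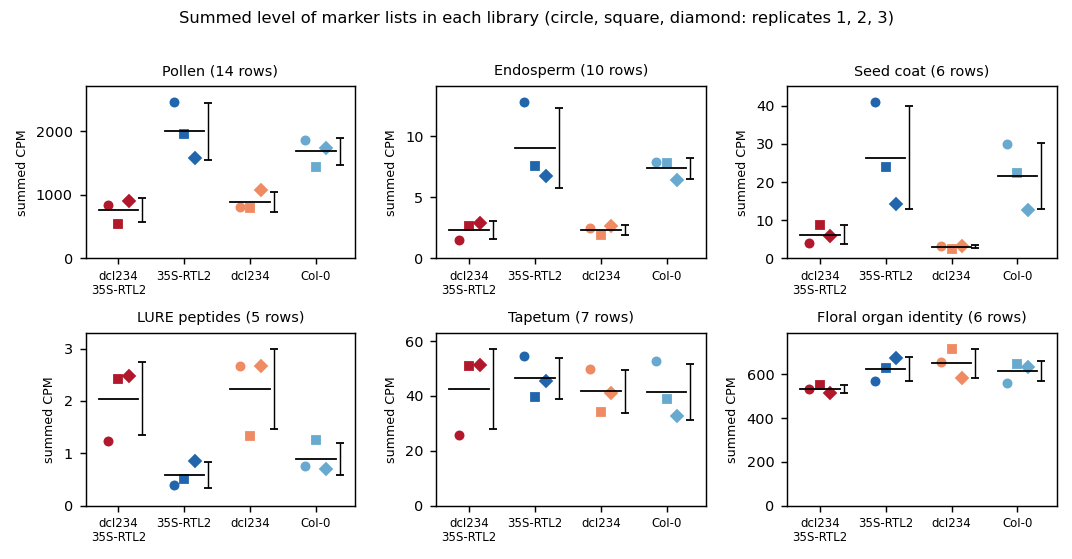
Summed CPM per library (linear axes from 0) of 6 marker lists in dcl234 35S-RTL2, 35S-RTL2, dcl234 and Col-0 plants, with 1 point per library, a line at the mean and an error bar of 1 SD (n = 3). Pollen, endosperm and seed coat sums are lower in all libraries of each mutant group than in the matching group with wild-type DCL genes, and the tapetum sums overlap.

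In the next 3 lists the share of rows called lay below the 20.9% of all rows, from 5.26% of the photosynthesis rows to 14.3% of the clock rows. Photosynthesis genes had 1 higher of 19, the row of LHCB3 with ATM2 at 0.53. Clock genes had 1 higher and 2 lower of 21, with the photoreceptor gene ZTL at 0.28, the morning gene LHY at -0.91 and its relative RVE1 at -1.08. Salicylic acid defence had 2 higher of 21, AIG1 at 1.64 and the row of EDS5 with AT4G39040 at 0.36. AIG1 was scarce, at 0.437, 0.334 and 0.279 CPM in dcl234 35S-RTL2 libraries and 0.144, 0.107 and 0.0813 CPM in 35S-RTL2 libraries. The 35S-RTL2 values of AIG1 lie near the level of 3 counts. Most of these calls were lost in the 6 fits that leave out a library. LHCB3 passed in 2 of them, LHY in 1, RVE1 in 2, EDS5 in 1, and ZTL and AIG1 in 4 each.

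Jasmonate genes had 1 higher and 2 lower of 16 (18.8%, beside 20.9% of all rows), with VSP2 at 0.66, the repressor gene JAZ1 at -0.75 and JMT at -0.64. Iron genes had 1 higher and 2 lower of 10 (30%), with the iron transporter gene IRT1 at 0.57, the ferric reductase gene FRO2 at -1.02 and OPT3 at -0.65. P5CS1, for proline synthesis, rose by 1.35 among 16 genes of cold, drought and abscisic acid. HSP18.2 rose by 0.67 among 7 heat shock genes, although 5 of the 7 lay below 0. JAZ1, FRO2 and HSP18.2 passed in all 6 of those fits, JMT, IRT1 and P5CS1 in 3, OPT3 in 2 and VSP2 in 1.

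**Figure D4:**
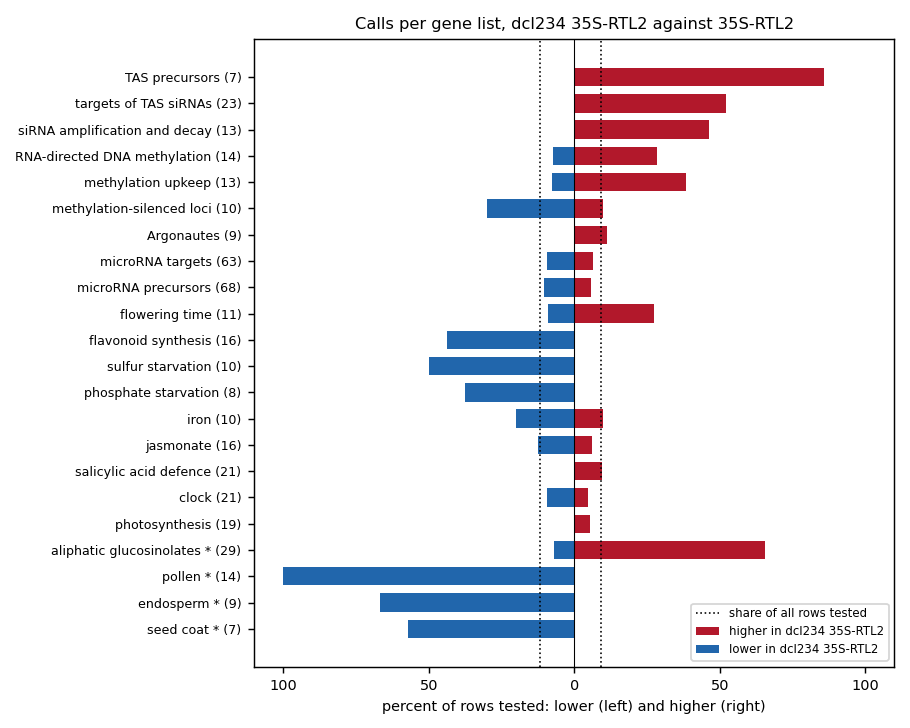
Percent of the tested rows of each gene list called lower (bars to the left) and higher (bars to the right) in dcl234 35S-RTL2 than in 35S-RTL2 plants, with the number of rows tested in brackets and an asterisk on lists drawn up after the calls were seen. The dotted lines mark the 11.8% of all rows called lower and the 9.11% called higher.

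The same contrast was measured without the construct. Between dcl234 and Col-0 plants 973 rows were called (4.56%), 161 higher (0.754%) and 812 lower (3.8%). That count moved with the fit, to 3336 with only the 6 libraries of this contrast (against 3836 with the construct, fitted the same way), 149 with the table number as a covariate (against 3394), and 282 to 562 without 1 library. The overlap below holds for the fit over all 18 libraries. Rows called in both contrasts numbered 856, which is 19.2% of the calls with the construct and 88.0% of those without it. Of these, 855 had the same sign, 113 higher and 742 lower. The contrasts share no library, but 1 fit gave the spread for both. Of all 4461 calls with the construct, 96.2% had the same sign without it, against 78.2% of all rows tested. The median size of these calls on the log2 scale was 0.63 with the construct, where they were selected, and 0.30 without it.

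**Figure D5:**
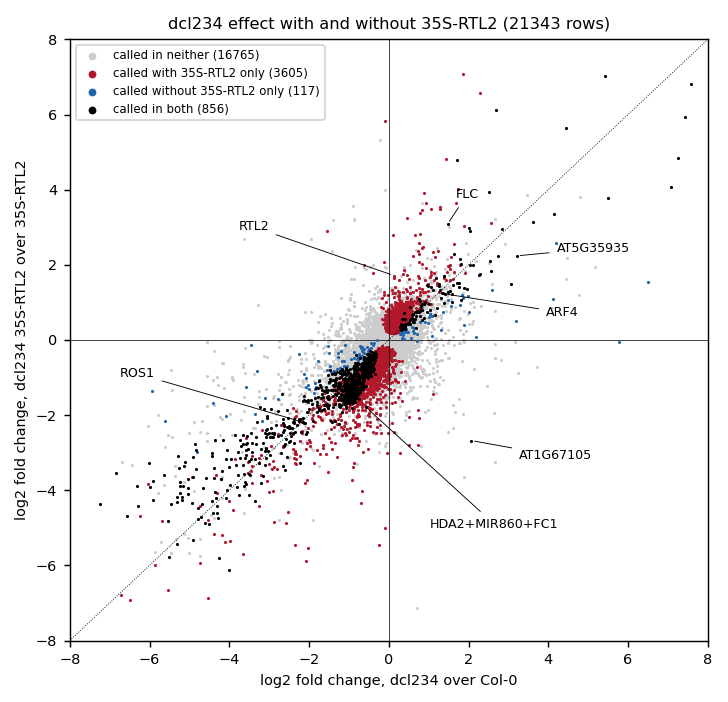
Log2 difference of dcl234 35S-RTL2 over 35S-RTL2 plants (vertical) against that of dcl234 over Col-0 plants (horizontal), 1 point per row tested, coloured by the contrast in which a row was called, with a dotted line where both are equal. Of the 856 rows called in both, 855 share their sign, and AT1G67105 lies in the quadrant of opposite signs.

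A test of the difference itself, the interaction of DCL genotype with the construct, called 2 rows of 21343 (0.00937%), both with a lower value for the contrast with the construct. The non-coding RNA AT1G67105 stood at 1.09, 0.667 and 0.279 CPM in dcl234 35S-RTL2 libraries and 3.03, 6.43 and 3.70 CPM in 35S-RTL2 libraries, a log2 difference of -2.68 (SE 0.47). Without the construct it stood at 2.03, 5.83 and 5.46 CPM in dcl234 and 0.962, 1.13 and 1.08 CPM in Col-0 libraries, a log2 difference of 2.07 (SE 0.44). It was thus lower in the mutant with the construct and higher in the mutant without it, and the interaction was -4.74 (SE 0.64, edgeR adjusted p = 0.0282).

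The row of HDA2 with MIR860 and FC1 stood at 65.1, 71.7 and 67 CPM in dcl234 and 94.6, 106 and 102 CPM in Col-0 libraries without the construct, a log2 difference of -0.57 (SE 0.11), against -1.79 (SE 0.12) with it. Its interaction was -1.22 (SE 0.16, edgeR adjusted p = 0.0282). RTL2, with an interaction of 1.58 (SE 0.24), did not pass (edgeR adjusted p = 0.0592). At an unadjusted p below 0.05 the interaction held 1123 of 21343 rows. A share of 0.05 of all rows would lie there if no row differed, which is close to this count. Leaving out replicate 1 of dcl234 35S-RTL2 gave 2 calls, leaving out dcl234 replicate 1 gave 1, and edgeR made no call without any other single library of the 12. A row called in one contrast and not in the other is thus not shown to differ between them.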

How the data were processed

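Messenger RNA of whole Arabidopsis seedlings was sequenced on a HiSeq2000 in 18 libraries of 7 groups, and the 6 libraries compared were taken by title. The authors deposited read counts that had not been normalised, a whole number for each row of each library, with TAIR9 named as the build per the submitters' processing notes. For aligner, counter, filters and strand use, the choices were not given in the sources used here, so a gene and its antisense partner may share reads. Of 31362 rows, 1897 join overlapping genes, and these held 13.6% of the counts in the median library. Symbols and sequences came from RefSeq assembly TAIR10.1, where 32701 of 33378 genes had an entry. As the builds differ, coordinates are left out.

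The filterByExpr function of edgeR 4.0.16 (R 4.3.3) kept 21343 rows. Libraries were scaled by TMM and fitted with glmQLFit and glmQLFTest, with 1 mean per group over all 18 libraries. A call is a p below 0.05 after Benjamini-Hochberg adjustment across the whole table of tested rows. Levels are TMM-scaled CPM, differences are log2, their standard errors (SE) follow from the F statistic of that test, and the common biological coefficient of variation was 15.1%. In a library, 3 counts are worth 0.106 to 0.144 CPM before scaling. Counting intervals cover counting error only. The scripts were tested on simulated counts with known changes.

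The comparisons, the gene lists and the rule for named genes were chosen with earlier results of these data known. Named are RTL1, RTL2 and the DCL genes, all TAS precursors and the calls of the interaction. Also named are the 10 higher and the 10 lower calls with the largest change among those averaging 1 CPM or more with groups that do not overlap. Up to 4 called members (smallest adjusted p first) were named from the miRNA precursors and from each of 25 lists, except the root, floral and seed storage markers. Another 7 lists (pollen, tapetum, endosperm, seed coat, synergid attractants, aliphatic and indole glucosinolates) and the other named genes were chosen after their values were seen. Alternatives were RLE size factors, no filter, DESeq2 1.42.0, only the libraries of the groups compared, the number of the deposited table as a covariate, a replicate block, and leaving out each library in turn.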

Additional observations from a re-analysis of the deposited data

Results flagged for a closer look

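AT1G67105, a non-coding RNA, was flagged because the mutant contrast differed between plants with and without the RTL2 construct. The mutant was lower with the construct and higher without it, and the interaction was -4.74 on the log2 scale (SE 0.64, adjusted p = 0.0282 in edgeR's interaction test).

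The row of HDA2 with MIR860 and FC1 was flagged for the same reason. Both contrasts were lower in the mutant, by a log2 difference of -1.79 with the construct and -0.57 without it, and the interaction was -1.22 (SE 0.16, adjusted p = 0.0282 in edgeR's interaction test).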

How the results depend on the processing

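The 4461 calls of dcl234 35S-RTL2 against 35S-RTL2 stood within 1.5 times under each setting except those that leave out a library: 4449 with RLE size factors, 4056 with no filter, 5123 with DESeq2, 3836 with only the libraries of these groups and 3394 with the table number as a covariate. Leaving out 1 library gave 1952 to 5912 calls, 555 to 2673 higher and 1314 to 3239 lower. Calls of dcl234 against Col-0 were less stable. They numbered 3336 (1143 higher, 2193 lower) with only the libraries of these groups, 149 (32 higher, 117 lower) with the table number, and DESeq2 gave 1442 with 249 higher. Leaving out 1 library gave 282 to 562, with 62 to 82 higher and 216 to 491 lower. The interaction had 11 calls (4 higher, 7 lower) with DESeq2, 1 higher with no filter, 1 higher and 1 lower with only the libraries of the groups compared, 0 in all and 0 lower by edgeR with the table number, and 0 to 2 calls, 0 to 0 higher and 0 to 2 lower, without 1 library.

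The labels do not say that replicate numbers pair the samples. Deviations of same-numbered libraries correlated across genes at -0.17, -0.18 and -0.03 between dcl234 35S-RTL2 and 35S-RTL2, and at 0.253, 0.0975 and 0.187 between dcl234 and Col-0, where each library correlated best with its own number, a hint from the data and not the design. With the replicate block the calls were 5667 (2696 higher, 2971 lower), 1149 for dcl234 against Col-0 and 3 for the interaction, 1 of them higher.

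Of 148 named genes tested, 140 were called, 81 were called in all 12 alternatives, 59 lost the call in at least 1, and none of these 140 changed sign in any of the 12. Among the 8 not called, ARF2, AT3G01345, DCL4, RTL1 and TAS3C changed sign in at least 1. The causes were not tested. With 3 libraries a group, low rows such as TAS3B, HTT1 and FWA rest on few counts, joined rows cannot be given to 1 gene, and the level of RTL2 and the DCL genotype change together.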
